A study of Mus musculus with 2 samples.

Results

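Aminoacyl-tRNA synthetases join each amino acid to its transfer RNA and so supply every ribosome with its substrate. Separate nuclear genes encode most of the enzymes of the cytosol and of the mitochondrial matrix. The mitochondrial enzymes are made by cytosolic ribosomes and imported, to charge the transfer RNAs used for the proteins encoded in mitochondrial DNA. Enzymes of both kinds are of interest in the nervous system, where inherited variants of several of them cause neuropathy or leukodystrophy.

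The 36 genes described here are 20 cytosolic and 16 mitochondrial synthetases, chosen by name from the 45578 genes of the count table. All 36 were matched by symbol, 1 gene identifier each. The labels give 2 biological replicates of 1 group: brain of control pups at postnatal day 5, with genotype Smn+/-; SMN2tg/0, on a congenic FVB background. Both libraries therefore share the loss of 1 mouse Smn copy and the human SMN2 transgene. RiboLace, in which beads with a puromycin analogue capture active ribosomes, was used to collect ribosome-protected fragments. With no second condition, the design gives the level of each gene and the spread between the libraries. The series text speaks of a single mouse and of biological duplicates, so the labels do not settle whether the replicates were separate animals. The exact binomial p-values set the difference between these 2 libraries against counting error alone, and hold no estimate of the spread between libraries.

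The libraries held 343552 and 120282 counts at the gene level, with each gene represented by its transcript with the highest summed count. Neuronal, astrocyte and oligodendrocyte lineage markers were all detected, and Alb and Apoa2 of liver and Ckm and Mylpf of skeletal muscle had 0 counts in both libraries. Of the other liver and muscle markers, Ttr had 395 and 153 counts, Acta1 70 and 22, and Myh3 2 and 2. Levels are given as CPM, the counts scaled by effective library size, or, to compare genes, as footprint density, the CPM per kilobase of coding sequence of the most covered protein-coding transcript. A single count equalled 2.71 CPM in the first library and 8.93 in the other. In whole tissue, a low level may come from fewer cells that express a gene or from less RNA per cell, and these cannot be told apart.

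The cytosolic synthetases stood well above the mitochondrial ones. Replicate 1 gave 836 counts to the 20 cytosolic genes together, and replicate 2 gave 251. These made up 0.243% of gene counts (0.227 to 0.260 as the 95% interval by Wilson's method) and 0.209% (0.184 to 0.236). Their median density was 37.1 in replicate 1 and 43.4 in replicate 2, compared with 13.7 in both libraries for the 14289 coding genes with a count. Those coding genes were shorter, with a median of 1368 coding nucleotides, against 2076 for the cytosolic and 1616 for the mitochondrial members. Coding genes of 1500 to 1999 nucleotides had a median density of 10.4 and 10.8, and those of 2000 to 2999 had 9.61 and 8.98. All 20 cytosolic genes had a mean density above the median of the 14289 coding genes. In single libraries Iars (9.30) and Mars (12.0) lay below it in replicate 1, and Vars (11.8) in replicate 2. The 16 mitochondrial genes had 94 and 88 counts, or 0.0274% (0.0224 to 0.0335) and 0.0732% (0.0594 to 0.0901), and these intervals did not overlap. This difference followed Lars2 alone: the other 15 mitochondrial genes had 80 and 23 counts, or 0.0233% (0.0187 to 0.0290) and 0.0191% (0.0127 to 0.0287). The median density of the 16 was 9.40 and 6.1995, in replicate 1 close to the 10.4 of coding genes of 1500 to 1999 nucleotides. By mean density 3 of them (Lars2, Hars2 and Rars2) lay above the median of all coding genes with a count. In replicate 1 Hars2 (10.7) and Rars2 (9.36) lay below that median and Sars2 (13.9) just above it. In replicate 2 Yars2 (17.0) was above it as well. The ratio of the cytosolic to the mitochondrial median was 3.95 in replicate 1 and 6.997 in replicate 2, or 5.47 ± 2.16 (SD, n = 2). All these intervals take the counts as independent and cover counting error only. Reads amplified by PCR and lacking molecular identifiers need not stem from separate molecules, so the intervals may be too narrow even for that error.

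**Figure D1:**
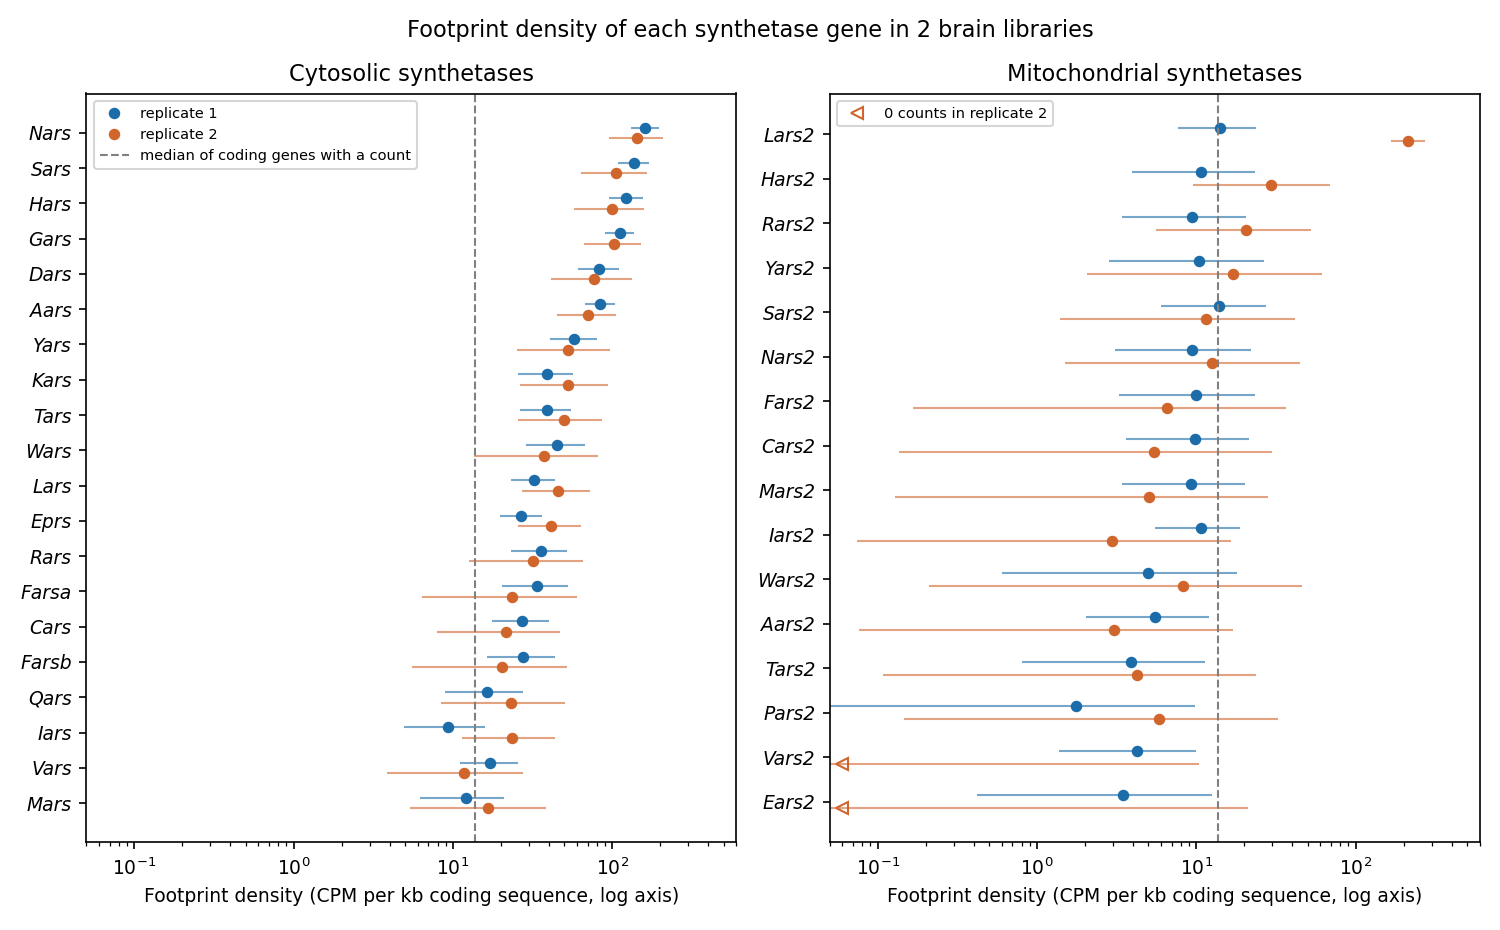
Footprint density of the 36 synthetase genes (CPM per kilobase of coding sequence, log axis), with 1 point per library and lines for the 95% exact Poisson interval of the count, cut at the left edge. The dashed line is the median of 14289 coding genes with a count. The cytosolic genes lie mostly to the right of it and the mitochondrial genes mostly to the left, and the points of Lars2 are far apart between the libraries.

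Nars, which charges asparagine, was the cytosolic gene with the highest mean density per kilobase of coding sequence. Its 100 counts in replicate 1 and 27 counts in the other library gave a density of 161 and 144 and a mean of 152.4 ± 12.6 (SD, n = 2), at percentile 92.8 of the coding genes. Sars, for serine, followed with 81 and 19 counts and 120.8 ± 21.9 (SD, n = 2). Hars, for histidine, had 69 and 17 counts and 110.7 ± 16.3 (SD, n = 2). Gars, the glycine enzyme, had 90 and 25 counts and 106.7 ± 6.67 (SD, n = 2). Its gene supplies both the cytosol and mitochondria, by use of alternative start codons. The density of Nars was 1.45 times that of Gars in replicate 1 (95% exact interval of the counts 1.08 to 1.95) and 1.41 times in replicate 2 (0.787 to 2.53), so their order was not resolved in the shallower library. Between neighbours among these 4 genes the intervals of every ratio included 1 in both libraries: Nars was 1.18 and 1.36 times Sars, Sars 1.11 and 1.06 times Hars, and Hars 1.10 and 0.973 times Gars. Per kilobase of transcript the mean was 104.3 for Sars, 97.7 for Gars, 97.3 for Nars and 85.3 for Hars. The lead of Nars, also over Gars, thus depended on the length used.

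Dars, for aspartate, and Aars, for alanine, came next with 79.9 ± 4.03 and 77.3 ± 9.37 (each SD, n = 2). Dars was 0.987 times Aars in replicate 1 (0.676 to 1.42) and 1.09 times in replicate 2 (0.508 to 2.25), so their order was not resolved in either library. Aars had 90 and 23 counts, as many as Gars in replicate 1, on a coding sequence of 2907 nucleotides against 2190. Yars (tyrosine), Kars (lysine), Tars (threonine) and Wars (tryptophan) lay between 41.0 and 55.1 in mean density. Kars also serves both compartments, through alternative splicing. Kars-203 and Kars-202, both with 1875 coding nucleotides, had 27 and 11 and 25 and 9 counts, and Kars-201, with 1788, had 28 and 8. These counts cannot divide the forms, because isoforms share fragments.

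Mars, for methionine, had the lowest cytosolic density, 14.2 ± 3.17 (SD, n = 2), with 12 and 5 counts on its coding transcript. Nars stood 13.4 times above Mars in replicate 1 (7.36 to 26.9) and 8.71 times above it in replicate 2 (3.31 to 29.0), with both intervals above 1. Vars (valine) had a mean density of 14.5, Iars (isoleucine) 16.4 and Qars (glutamine) 19.7. Qars has no mitochondrial counterpart gene, since mitochondria make glutaminyl-tRNA by amidation of glutamyl-tRNA. Annotated isoforms numbered 6 for Mars, 13 for Vars, 9 for Iars and 17 for Qars, while Nars, Hars and Gars had 1 each. The number did not track density throughout, as Lars and Tars, at 38.8 and 44.1, also had 1, and Sars, at 120.8, had 5. The part of isoform number in the order was not tested. With the counts of all isoforms summed, which counts shared fragments repeatedly, Mars had a mean density of 51 and Qars of 77.1, against 152.4 for Nars. By that measure Sars (5 isoforms) led with 363, followed by Wars at 185 and Aars at 173 (7 isoforms each), all above Nars, so the top of the order depended on how isoforms were counted.

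Phenylalanyl-tRNA synthetase is built from equal numbers of alpha and beta subunits, encoded by Farsa and Farsb. The coding transcript of Farsa had 19 and 4 counts, and that of Farsb 18 and 4. Farsa had a density of 33.7 and 23.4, and Farsb of 27.6 and 20.2. The ratio of Farsa to Farsb was 1.22 in replicate 1 (95% exact interval of the counts 0.608 to 2.47) and 1.16 in replicate 2 (0.216 to 6.22), so a difference between the subunits was not detectable at this depth. Eprs, a single polypeptide that charges both glutamate and proline, has the longest coding sequence of the members, 4539 nucleotides. It had 45 and 21 counts and a density of 26.9 and 41.3, or 34.1 ± 10.2 (SD, n = 2), in the middle of the cytosolic genes.

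The synthetases belong to 2 structural classes with unrelated catalytic folds. Among the cytosolic members, the 10 class II genes had a median density of 83.3 in replicate 1 and 73.9 in replicate 2. The 9 class I genes had 27.1 and 23.6. The ratio of class II to class I was 3.07 and 3.13, or 3.10 ± 0.0452 (SD, n = 2). This grouping was compared after the table was seen, and genes are not replicates, so no test is given. Class I genes also had longer coding sequences, a median of 2496 nucleotides against 1725, and more isoforms. Their raw counts were lower as well, a median of 24 and 6 on the coding transcripts, against 57.5 and 15 for class II. Over all coding genes, the median density was 10.4 and 10.8 for 1500 to 1999 coding nucleotides, 9.61 and 8.98 for 2000 to 2999, and 6.98 and 6.92 for 3000 to 4999. The part of length in the class ratio was not tested. The class ratio was 2.22 with isoforms summed and 2.23 per kilobase of transcript. Among the mitochondrial genes the medians of the classes were close, 9.36 and 5.38 for the 9 class I genes and 9.45 and 6.59 for the 7 class II genes.

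In animal cells 8 of the cytosolic synthetase genes (Eprs, Iars, Lars, Mars, Qars, Rars, Kars and Dars) encode parts of the multi-tRNA synthetase complex, which is held together by the scaffold proteins Aimp1, Aimp2 and Eef1e1. The complex genes had a median density of 29.5 and 36.4, and the other 12 cytosolic genes 51.3 and 51.0. The ratio of the complex to the other genes was 0.576 in replicate 1 and 0.713 in replicate 2, or 0.645 ± 0.0973 (SD, n = 2), and 0.904 per kilobase of transcript. Class and complex overlap: 5 of the 8 complex genes are class I only (Iars, Lars, Mars, Qars and Rars), against 4 of the 12 others (Cars, Vars, Wars and Yars). Within class I the complex genes had a median of 16.3 and 23.6 and the others 36.1 and 29.3. Within class II the 2 complex genes, Dars and Kars, had a median of 60.9 and 64.7, and the 8 others 97.6 and 84.9. Of the scaffold genes, Eef1e1 had 24 and 3 counts and a density of 124 and 51.0, and Aimp1 23 and 6 counts and 64.9 and 55.8.

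**Figure D2:**
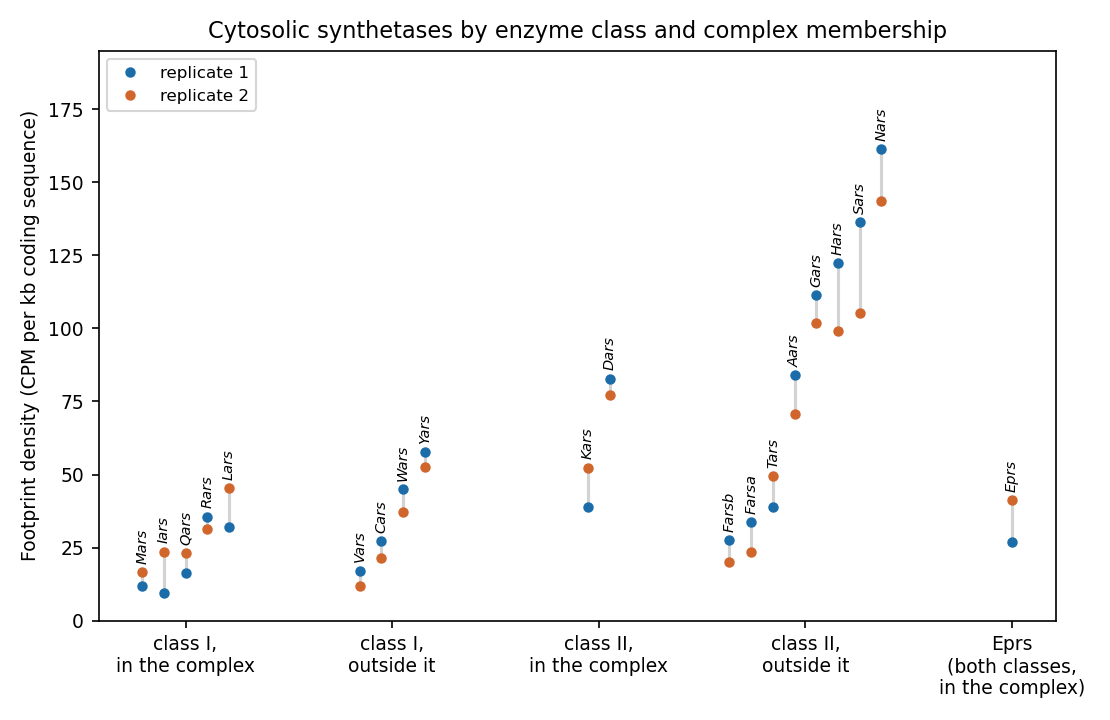
Footprint density of the 20 cytosolic synthetase genes (CPM per kilobase of coding sequence, linear axis from 0) by enzyme class and membership of the multi-tRNA synthetase complex, with 1 point per library joined by a line. Class II genes reach from 23.9 (Farsb) to 152.4 (Nars) in mean density and class I genes from 14.2 (Mars) to 55.1 (Yars).

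For 16 mitochondrial genes the cytosolic gene for the same amino acid is also a member, with Eprs set against both Ears2 and Pars2, and Farsa against Fars2. The cytosolic gene had the higher density in both libraries for 14 of these 16 pairs. The 95% exact interval of the ratio lay above 1 in both libraries for 7 pairs, in replicate 1 for 14 and in replicate 2 for 8. Nars was 17.1 times Nars2 in replicate 1 (7.08 to 53.7) and 11.5 times in replicate 2 (2.90 to 99.99). Aars was 15.2 times Aars2 (6.71 to 42.5) and 23.3 times (3.78 to 959), the last against a single count of Aars2. Sars was 9.79 times Sars2 (4.74 to 23.4) and 9.18 times (2.22 to 81.3). Tars was 9.98 times Tars2 (3.11 to 51.0) and 11.6 times (1.71 to 495), and Eprs was 15.2 times Pars2 (2.60 to 615) and 7.11 times (1.14 to 294). These 5 pairs are among the 7 whose interval lay above 1 in both libraries, with 1 coding transcript per gene. The size of these gaps depended on that rule, for threonine as Tars2 has 19 isoforms and Tars has 1. With isoforms summed, Tars had a density of 38.7 in replicate 1 and 49.4 in replicate 2, and Tars2 37.5 and 21.3. The asparagine gap also narrowed, to 161 and 144 for Nars against 26.5 and 18.7 for Nars2. The gap widened for Aars, 177 and 169 against 5.52 and 3.03 for Aars2, and for Sars, 382 and 344 against 13.9 and 11.5 for Sars2. Eprs had 51.9 and 80.7 and Pars2 5.29 and 5.81, a gap narrower in replicate 1 and wider in replicate 2.

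Among these 14 pairs, methionine had the narrowest gap in replicate 1. Mars was 1.30 times Mars2 in replicate 1 (0.452 to 4.22) and 3.25 times in replicate 2 (0.364 to 154), and neither interval left out 1. Rars, for arginine, was 3.80 times Rars2 (1.53 to 11.3) and 1.53 times (0.390 to 7.14). In replicate 2 Ears2 had 0 counts against 21 of Eprs, and the lower exact limit of the ratio was 1.80. Vars2 also had 0 counts there against 5 of Vars, with a lower limit of 0.769, so that pair was not resolved in replicate 2.

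The 2 exceptions were the isoleucine and leucine pairs. Iars had 13 counts and Iars2 12 in replicate 1, a density ratio of 0.869 (0.366 to 2.08), and 10 and 1 in replicate 2, a ratio of 8.02 (1.14 to 348). The direction for isoleucine was thus not resolved in replicate 1. Lars was 2.30 times Lars2 in replicate 1 (1.23 to 4.56) and 0.212 times in replicate 2 (0.118 to 0.362), and these intervals did not overlap. Lars itself, with 42 and 18 counts, had a density of 32.2 and 45.4, so the reversal followed the count of Lars2.

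**Figure D3:**
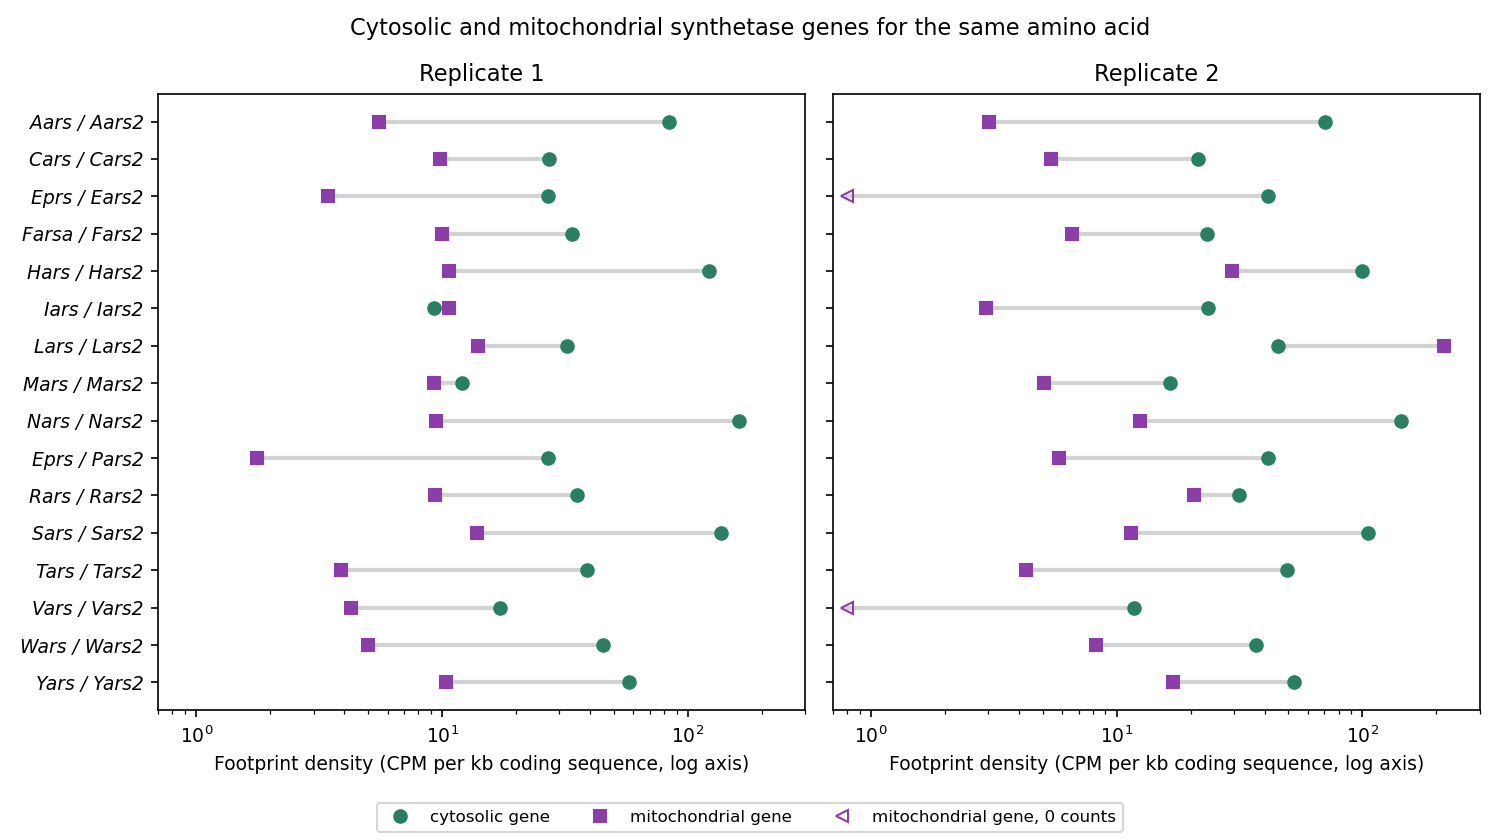
Footprint density (CPM per kilobase of coding sequence, log axis) of the cytosolic gene (circle) and the mitochondrial gene (square) for the same amino acid, 1 panel per library; a triangle at the left marks 0 counts. The circle lies to the right of the square in both panels for 14 of 16 pairs, and Iars in replicate 1 and Lars in replicate 2 are the exceptions.

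Apart from Lars2, the mitochondrial genes were sparsely covered. Iars2 had 12 and 1 counts and Sars2 8 and 2, and none of the other 13 had more than 6 counts in replicate 1 or 5 in replicate 2 on its representative transcript. Hars2 was the next in mean density after Lars2, 20.1 ± 13.2 (SD, n = 2), with 6 and 5 counts. Ears2, for glutamate, had 2 and 0 counts, Vars2 5 and 0, and Pars2, for proline, 1 and 1. A count of 0 in replicate 2 allows a share of up to 0.00249% of gene counts. The genes of the mitochondrial ribosome, which use the charged transfer RNAs, had a median density of 45.8 and 43.1 over 77 genes. By mean density 76 of them lay above the median of coding genes, against 3 of the 16 mitochondrial synthetases. The coding sequences of these ribosomal genes are shorter, with a median of 576 nucleotides against 1616. Of the amidotransferase and formylation genes, Gatc had 10 and 3 counts and Qrsl1 6 and 2, at mean densities of 57.6 and 10.8.

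The libraries were compared gene by gene with a 2-sided exact binomial test over the 5436 genes whose mean count reached 10. It compares these libraries, not conditions. Of the 36 members 20 were tested, 19 of the 20 cytosolic genes (all but Mars, with 12 and 6 counts) and Lars2. Lars2 alone of the 20 differed at a Benjamini-Hochberg adjusted p under 0.05, while the test called 4.14% of all genes tested and 0.956% of the 4392 protein-coding genes among them. Genes called as higher in replicate 2, the direction of Lars2, were 3.99% of those tested. A negative binomial exact test with a preset coefficient of variation of 0.2 between libraries called 2.41%, Lars2 again included. The 19 cytosolic genes had a median log2 ratio of replicate 2 over replicate 1 of -0.13, against -0.016 for the coding genes tested. Of these 19, 1 gene, Iars, had an unadjusted exact binomial p under 0.05. The same held for 9.6% of all genes tested, and for 245 of the 4388 tested genes with a count on a coding transcript.

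The counts of Lars2 were 14 in replicate 1 and 65 in the other library, a density of 14.0 and 214, and its mean of 114 ± 142 (SD, n = 2) describes neither library. On the log2(CPM + 1) scale the ratio was 3.90, with an adjusted exact binomial p of 7.47e-26. The table gives Lars2 a single transcript, with 2709 coding nucleotides and a 3' untranslated region of 986. Among the 4392 coding genes tested, 2 had a ratio as high as this, Lars2 itself included. The mitochondrial ribosomal RNAs had log2 ratios in the same range, 3.84 for mt-Rnr2 (635 and 2761 counts) and 3.45 for mt-Rnr1 (474 and 1577 counts), and their share of gene counts went from 0.323% to 3.61%. The part of ribosomal RNA fragments in the count of Lars2 was not tested. In replicate 1 its density was near those of Sars2 (13.9) and Hars2 (10.7).

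**Figure D4:**
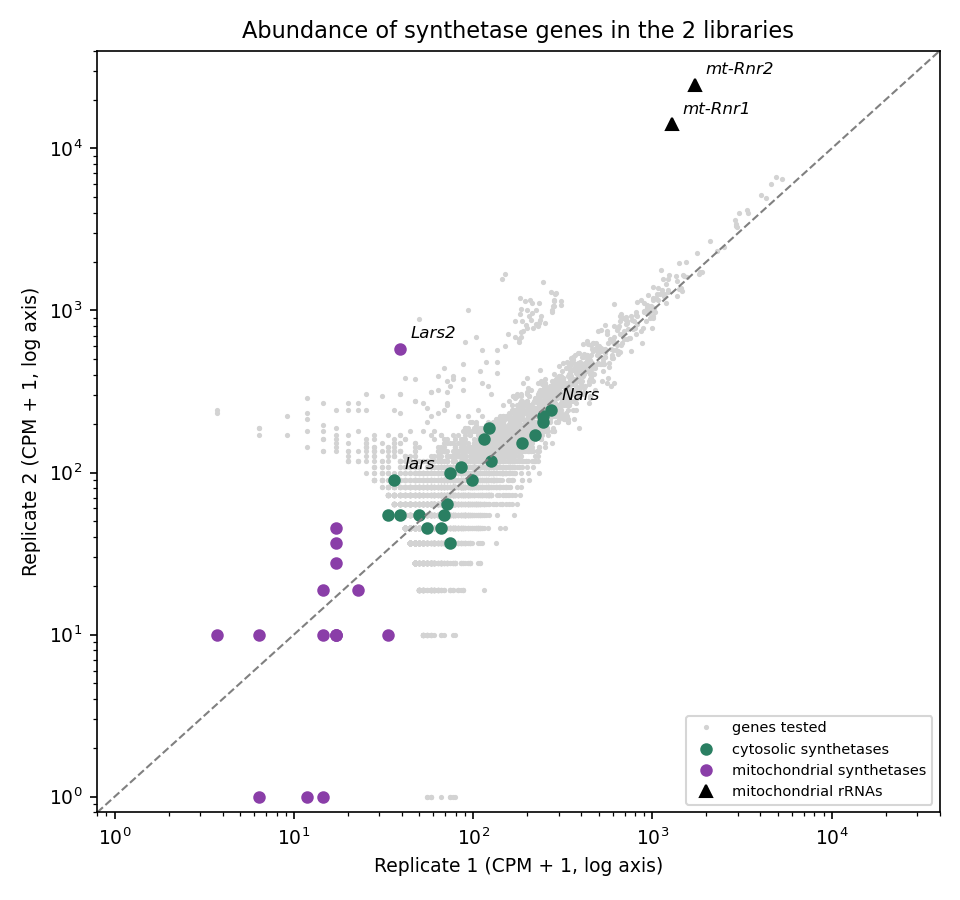
Abundance in replicate 2 against replicate 1 (CPM + 1, log axes) for the genes tested (grey), the cytosolic and mitochondrial synthetases and the mitochondrial ribosomal RNAs; the dashed line marks equal values. The cytosolic genes follow the line, and Lars2 lies above it at a log2 ratio of 3.90, beside 3.84 for mt-Rnr2.

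Among the tested members the next highest ratio was that of Iars, with 13 and 10 counts and a log2 ratio of 1.32 (adjusted exact binomial p = 0.475). This ratio rests on the transcript Iars-202. The other transcripts with the same coding length had 13 and 6 counts (Iars-001) and 16 and 6 (Iars-201). The lowest ratios were those of Wars, at -1.01 with 27 and 4 counts (adjusted exact binomial p = 0.861), and of Vars, at -0.53 with 24 and 5 counts (adjusted exact binomial p = 1). The value of Wars comes from Wars-002, annotated as a target of nonsense-mediated decay, and its coding transcript Wars-004 had 24 and 6 counts. Measured on the longest coding isoform, the ratio of Wars was -0.27 and that of Vars -0.12.

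For 7 of the 36 members the representative transcript (highest summed count, the longer in a tie) was not annotated as protein coding. By the same rule this held for 8.50% of the 14480 coding genes with a count on a transcript of any kind (14289 had 1 on a coding transcript). In 3 of the 7 members the representative was a retained intron form (Mars, Ears2 and Tars2). In 4 it was a target of nonsense-mediated decay (Farsa, Farsb, Wars and Yars2). The counts of these forms were close to those of the coding transcripts, 18 and 6 for Farsa-003 beside 19 and 4 for Farsa-001, and 20 and 5 for Farsb-004 beside 18 and 4 for Farsb-001. For Mars the retained intron form had 12 and 6 counts and the coding transcript 12 and 5. For Ears2 and Tars2 a coding transcript had the same summed count, and the retained intron form was taken only as the longer one. Ears2-001 (coding) and Ears2-002 both had 2 and 0 counts, and Tars2-008 (coding) had 3 and 1 beside 4 and 0 for Tars2-006. The table holds no counts per position, so fragments of the shared exons cannot be told apart from fragments particular to these forms.

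Uncharged transfer RNA activates the kinase Eif2ak4 (GCN2), and the transcription factor Atf4 then acts at C/EBP-ATF response elements, known from the promoters of several synthetase genes and of Asns. The element was searched as TGATGNAA on both strands in RefSeq promoters (GRCm38.p6, 250 bases before to 50 after the start), for the 27 members with an entry there. It was found for 5 of the 13 cytosolic genes and for 0 of the 14 mitochondrial genes, against 4.51% of all 27025 genes with a promoter entry and 3.97% of all 32851 promoters. A site of each of the 5 genes is shown, as this is a sequence feature that the rule for the members did not use, with the matched bases in capitals on the strand that reads TGATGNAA. Distances run from the annotated start to the first matched base in the direction of the gene.
Aars, chr8:111033840-111033869, minus strand, 10 bases into the transcribed part: tcagagcgctcTGATGAAAagtgacccgct
Gars, chr6:55037960-55037989, minus strand, from 30 bases before the start: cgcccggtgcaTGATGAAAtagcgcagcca
Tars, chr15:11399655-11399684, plus strand, from 15 bases before the start: agctaaccagcTGATGCAAcgggactcctg
Iars, chr13:49682126-49682155, minus strand, 8 bases into the transcribed part: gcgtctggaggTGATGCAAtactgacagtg
Yars, chr4:129189895-129189924, plus strand, 4 bases into the transcribed part: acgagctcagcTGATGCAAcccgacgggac
Asns, chr6:7693214-7693243, minus strand, from 23 bases before the start, for comparison: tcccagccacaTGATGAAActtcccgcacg

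A match is a description of the letters and not evidence of binding. The 5 genes with a match differed widely in density, from 106.7 for Gars and 77.3 for Aars through 55.1 for Yars and 44.1 for Tars to 16.4 for Iars. Cars, Hars, Lars, Nars, Rars, Vars and Wars had no promoter entry and were not searched, among them Nars and Hars with densities above that of Gars. The amino acid response list itself, 18 genes, had the motif for 5 of the 17 genes with a promoter entry. Its highest densities were those of Slc3a2 and Slc7a5, the subunits of a large neutral amino acid transporter, at 131.3 ± 30.0 and 123.5 ± 27.0 (each SD, n = 2), near those of Sars and Hars. Asns, asparagine synthetase, named after its values were seen, had 43 and 9 counts and 58.4 ± 15.2 (SD, n = 2). Of the list 8 genes were tested and 0 were called by the exact binomial test, with 0 at an unadjusted p under 0.05.

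The other genes of the pathway were taken from lists by role. Charged transfer RNAs are carried to the ribosome by the elongation factor 1A proteins. Eef1a1 had 556 and 183 counts and a density of 1085 and 1176, and Eef1a2, the form of mature neurons and muscle, 242 and 96 counts and 471 and 616. These were 2.30 to 1 in replicate 1 (95% exact interval of the counts 1.98 to 2.69) and 1.91 to 1 in replicate 2 (1.48 to 2.47), and fragments shared by the paralogs make the ratio uncertain. The ratio also depended on the isoform rule, as Eef1a1 has 8 isoforms and Eef1a2 has 1. With isoforms summed, Eef1a1 had a density of 4515 and 4584, and the values of Eef1a2 were unchanged. Both stood above every synthetase in both libraries. Of the editing genes, which clear mischarged transfer RNAs, Dtd1 had 8 and 3 counts and Aarsd1 20 and 4, at mean densities of 38.5 and 36.3. In the selenocysteine list Pstk had 2 and 2 counts and Eefsec 8 and 0. Tarsl2, a second cytosolic threonine enzyme, had 17 and 8 counts. Tars was 2.00 times Tarsl2 in replicate 1 (1.07 to 3.84) and 1.64 times in replicate 2 (0.617 to 4.63). With isoforms summed, Tars (1 isoform) had a density of 38.7 and 49.4 and Tarsl2 (3 isoforms) 33.1 and 52.7. Their order in replicate 2 thus depended on the isoform rule. Over all 42 genes of these lists, with the scaffold and amino acid response genes, 19 were tested and 0 were called by the exact binomial test, with 1, Eef1a2, at an unadjusted p under 0.05.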

How the data were processed

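The deposited table holds whole-number counts of footprints per Ensembl transcript and replicate, not normalised by the authors, with transcript and coding lengths. Fragments of 25 to 35 nucleotides were size selected, per the labels' protocols. Trimmomatic 0.36, Bowtie2 2.2.6, SAMtools and the build GRCm38.p4 are named in the submitters' processing notes. The counting rule is not given in the sources used here. Columns were matched to replicates by number.

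Isoforms with equal coding length differed by less than independent counts would: the mean squared difference over the sum was 0.217 and 0.338 for genes with 2 transcripts, 0.543 and 0.536 for 7 to 15, and 0.740 and 0.553 for 16 or more (replicate 1 and 2), where 1 would mean independence. Isoforms thus shared part of their fragments. A gene was therefore represented by its transcript with the highest summed count (the longer one in a tie). Densities use the protein-coding transcript with the highest summed count, a choice made after the table was seen.

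Scaling used TMM factors (1.07 and 0.931) from edgeR 4.0.16. Libraries were compared with a 2-sided exact binomial test per gene and Benjamini-Hochberg adjustment over all genes whose mean count reached 10, tested on simulated data. Log2 ratios use a pseudocount of 1 CPM, which understates changes of low genes. Intervals of density ratios are exact (Clopper-Pearson) and take the 2 counts as independent. SDs are over the 2 libraries. Python used scipy 1.17.1.

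All members could be named. Log2 ratios are given for called members and for the 2 highest and 2 lowest, and of each other list the 2 genes of highest mean density and any gene called are named. Some items these rules would name are not reported here. Members and lists were chosen with earlier results of these data known. Alternatives were the scaling (DESeq2 1.42.0 size factors, totals), filter, isoform rule, length, and each replicate left out. A further alternative was the negative binomial exact test of edgeR with a preset coefficient of variation of 0.2.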

Additional observations from a re-analysis of the deposited data

How the results depend on the processing

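No paired analysis was possible because the labels give a single group. Lars2 was called in every setting run except a mean of at least 50 counts, where 0 of the 4 members left were called by the exact binomial test, since Lars2 itself falls under that filter. Members past the filter went from 20 to 4 at a mean of at least 50 counts, and ranged from 13 to 22 when either replicate was left out. The cytosolic share of 0.226% became 0.292% of protein-coding counts. The cytosolic to mitochondrial density ratio of 5.47 became 7.86 per kilobase of transcript and 8.92 with isoforms summed. The ratio of complex to other cytosolic genes, 0.645, became 0.904 per kilobase of transcript, 0.466 with isoforms summed and 0.343 with representatives of any class. The ratio of Farsa to Farsb, 1.19, became 1.10 per kilobase of transcript, 1.27 on the longest coding isoform and 0.634 with representatives of any class, whose short annotated reading frames set the length. The class II to class I ratio of 3.10 became 2.23 per kilobase of transcript, 2.22 with isoforms summed and 3.79 with representatives of any class. Where no reason is given, the cause was not tested. The count of 14 pairs with the cytosolic gene higher became 15 per kilobase of transcript and with isoforms summed. In that last setting the threonine pair was close in replicate 1, with densities of 38.7 for Tars and 37.5 for Tars2. Settings with representatives of any class, without Lars2, and all those of the class ratio were added after the data were seen. Depth limits the mitochondrial genes: apart from Lars2 they had 0 to 12 counts, and differences among them were not tested.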
